A study of Macaca mulatta with 30 samples.

Results

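ZG16B, CRISP3 and C4H6orf58 are 3 of the 21292 genes in a table of transcript abundances from salivary glands, pancreas and liver of the rhesus macaque (Macaca mulatta). They were chosen by their measured TPM in the sublingual gland, which was high, so every comparison with that gland is given as a description without a test. All 3 passed the filter on low values (1 TPM or more in 6 libraries). TPM is a transcript's share of its library, corrected for transcript length, and every library sums to the same total.

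The study took parotid, submandibular and sublingual gland, pancreas and liver from 6 macaques, 4 females (animals 1 to 4) and 2 males (animals 5 and 6), and made 1 RNA-seq library per tissue and animal, 30 in all. The labels give no treatment, genotype or age, and describe the tissue as flash-frozen, with RNA taken from 3 sections of 30 µm. Animal 3 gave its right parotid, and the other 5 their left one. The design text names the tissue comparisons within an animal as its purpose, with amylase genes as the subject.

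All 3 genes code for proteins that leave the cell. ZG16B is a lectin-like protein related to ZG16 of pancreatic zymogen granules, and it is an abundant protein of saliva. CRISP3 belongs to the cysteine-rich secretory proteins, a branch of the CAP superfamily, and is known from saliva, from other exocrine secretions and from neutrophil granules. C4H6orf58 is the macaque symbol of the gene called C6orf58 or LEG1 in humans, a secreted protein whose role is less well known. The sublingual gland is a mainly mucous gland under the floor of the mouth.

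Some libraries carried markers that stood apart from their tissue label, and the main member values are also given without several of them. In the sublingual gland the summed TPM of 6 stratified oral epithelium genes was 84469 in animal 4 and 31070 in animal 1, against 80.8 to 487 in the other 4. The oral keratin gene KRT13 reached 34537 TPM in the former and 10694 in the latter. The summed TPM of 26 secreted proteins of mucous and seromucous glands was 4032 in animal 4 and 23624 to 171500 in the other 5. Skeletal muscle genes summed to 27351 TPM in the sublingual library of animal 5 and 10052 TPM in that of animal 1. In parotid they summed to 101095 TPM in animal 6 and 7486 TPM in animal 1. The submandibular library of animal 4 held 1580 TPM of serous salivary genes, where the highest of that gland held 308614, and the pancreas library of animal 4 held 4862 TPM of pancreas genes, where the highest held 412731. Those 2 libraries carried fat genes at 8086 and 18029 TPM and red blood cell genes at 10903 and 13945 TPM. The part of these other tissues in the member levels was not tested. In bulk tissue, fewer cells of a type and less RNA per cell cannot be told apart.

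ZG16B was the most abundant gene of the sublingual gland in 4 of the 6 animals. Its sublingual level was 31360 TPM in animal 1, 300050 in animal 2, 219405 in animal 3, 2016 in animal 4, 143860 in animal 5 and 332616 in animal 6. In animals 2, 3, 5 and 6 it took 14.4 to 33.3% of all TPM. It ranked number 2 in animal 1 and number 81 in animal 4, the libraries with the most oral epithelium markers. The mean was 171551 ± 137045 TPM (SD, n = 6), and 248983 ± 84711 TPM (SD, n = 4) without animals 1 and 4.

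CRISP3 was lower than ZG16B in every sublingual library. It was 433 TPM in animal 1, 1558 in animal 2, 1894 in animal 3, 753 in animal 4, 2929 in animal 5 and 1838 in animal 6. Animals 1 and 4 were again the lowest, here with animal 1 below animal 4. The mean was 1568 ± 893 TPM (SD, n = 6), and 2055 ± 601 TPM (SD, n = 4) without those animals.

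C4H6orf58 was 289 TPM in animal 1, 1399 in animal 2, 7106 in animal 3, 41.0 in animal 4, 4850 in animal 5 and 5254 in animal 6. It was above CRISP3 in animals 3, 5 and 6 and below it in animals 1, 2 and 4. The mean was 3156 ± 2963 TPM (SD, n = 6), and 4652 ± 2381 TPM (SD, n = 4) without animals 1 and 4. The highest library was that of the male animal 5 for CRISP3, the male animal 6 for ZG16B and the female animal 3 for C4H6orf58.

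The genes did not keep one ratio to each other. CRISP3 per 1000 TPM of ZG16B was 374 in animal 4 and 5.19 to 20.4 in the other 5 animals. C4H6orf58 per 1000 TPM of ZG16B was 20.3 in animal 4, within the 4.66 to 33.7 of the others. In the sublingual library of animal 4, the one with the most oral epithelium RNA, CRISP3 stayed above its highest level in any other tissue, while the other members were near their levels in liver. Neutrophils are another known source of CRISP3. The summed TPM of 10 neutrophil genes was 34617 in animal 4 and 14762 in animal 1, against 44.7 to 378 in the sublingual glands of the others. In the library of animal 4 the neutrophil genes S100A8 (9855 TPM) and S100A9 (24755 TPM), which keratinised epithelium also makes, were high. The other 8 genes of the list were at most 3.001 TPM there. Of these CXCR2, a chemokine receptor, was highest in that library (0.452 TPM or less in the other sublingual libraries), CSF3R was 0.0350 TPM and AZU1 was listed at 0, as in animals 1 and 2. The part of neutrophils in the CRISP3 level was not tested.

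**Figure D1:**
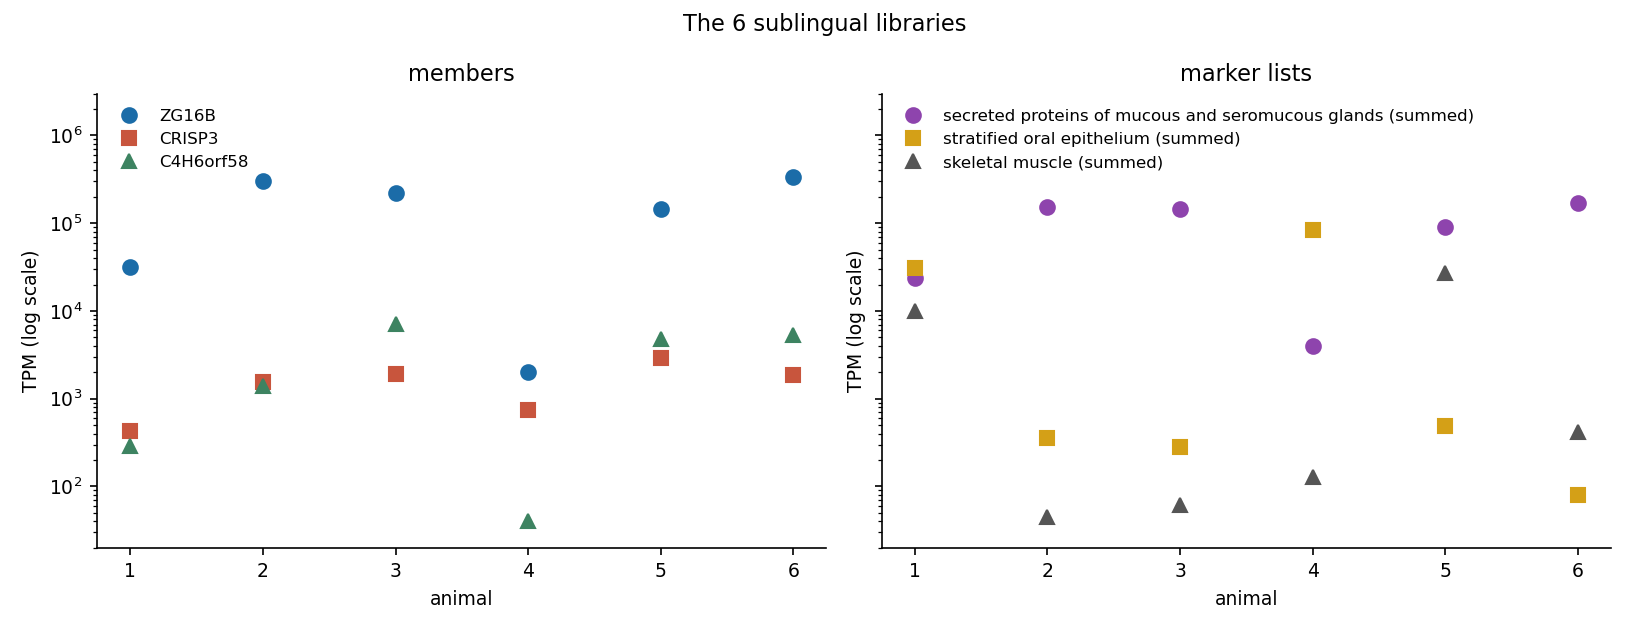
TPM (log scale) in the 6 sublingual libraries, by animal. The left panel shows the 3 genes and the right panel the summed TPM of 3 marker lists. Animals 1 and 4 carry 31070 and 84469 TPM of stratified oral epithelium genes and have the lowest level of each of the 3 genes.

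In the other 4 tissues ZG16B came next in the submandibular gland. Its submandibular level was 20304 TPM in animal 1, 11208 in animal 2, 25651 in animal 3, 670 in animal 4, 18029 in animal 5 and 42560 in animal 6, so 5 libraries were at 11208 or more and that of animal 4 was far below. Liver held 1124 to 2378 TPM (median 1848), parotid 516 to 3108 TPM (median 1290) and pancreas 264 to 2666 TPM (median 1271). These last 3 ranges overlapped one another. The submandibular range overlapped them only through animal 4, and without that library its mean was 23550 ± 11823 TPM (SD, n = 5), against 19737 ± 14110 TPM with it. The pancreas mean was 1212 TPM without animal 4 and 1223 TPM with it, and the parotid mean was 1356 TPM without animal 6, whose library held muscle genes, and 1536 TPM with it.

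CRISP3 in the submandibular gland was 28.2 TPM in animal 1, 14.1 in animal 2, 120 in animal 3, 15.5 in animal 4, 15.5 in animal 5 and 63.5 in animal 6. It was 12.7 to 22.7 TPM in liver (median 19.7), 1.14 to 32.2 TPM in pancreas (median 9.53) and 2.47 to 14.0 TPM in parotid (median 8.76). The lowest submandibular value was just above the highest parotid value, and all other pairs of these 4 tissues overlapped. CRISP1 and CRISP2, its family members known from the male reproductive tract, did not exceed 0.912 TPM in any sublingual library.

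C4H6orf58 was 5.64 to 43.1 TPM in liver (median 25.2), 0.805 to 44.7 TPM in pancreas (median 18.1), 12.7 to 31.8 TPM in submandibular gland (median 15.2) and 1.12 to 21.2 TPM in parotid (median 12.4). All 4 ranges overlapped, so the order of these tissues is not separated by their spread. Unlike ZG16B, the submandibular gland of animal 4 was not low for this gene (20.8 TPM).

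**Figure D2:**
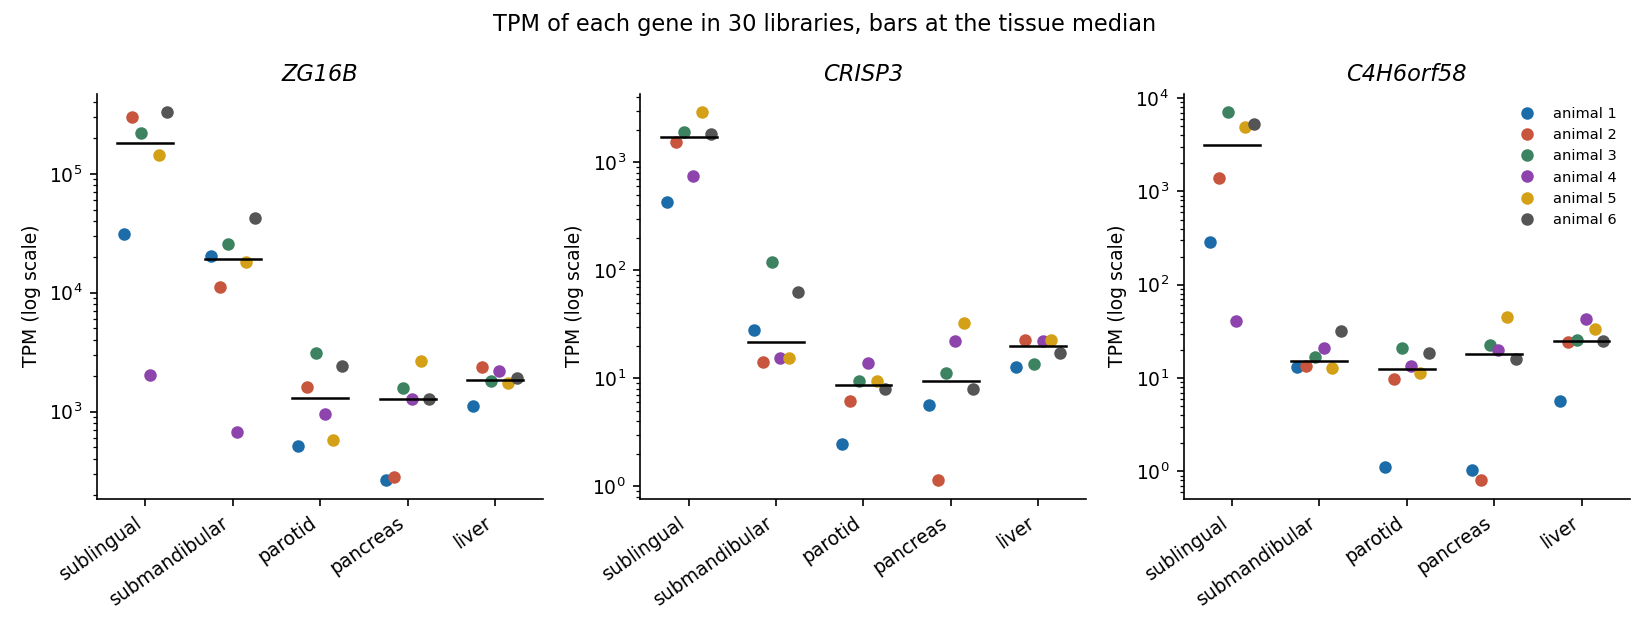
TPM (log scale) of ZG16B, CRISP3 and C4H6orf58 in the 30 libraries, coloured by animal, with a bar at the median of each tissue. The sublingual gland has the highest median for each gene, and ZG16B is next highest in the submandibular gland except in animal 4.

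The sublingual gland held the highest level of each gene by mean. Within animals, CRISP3 was higher in sublingual than in each other tissue in 6 of 6 animals, and its sublingual range did not overlap any other. CRISP3 was chosen for that level, and a higher sublingual level was common. In limma 40.6% of all genes tested were higher in sublingual gland than in parotid, and 27.2% than in submandibular gland. The share of all genes without overlap was not counted. The ratio of sublingual to submandibular CRISP3 TPM was 15.3 to 189 across animals. The mean within-animal difference of log2(TPM + 1) was 5.40 ± 1.46 (SD, n = 6) against submandibular gland and 7.28 ± 0.88 against parotid. ZG16B differed by 2.67 ± 1.42 from submandibular gland and by 5.95 ± 2.52 from parotid on the same scale. C4H6orf58 differed by 6.05 ± 2.95 from submandibular gland and by 6.78 ± 2.65 from parotid. Without the sublingual libraries of animals 1 and 4 the differences from submandibular gland and parotid were 3.45 and 7.18 for ZG16B, 5.74 and 7.76 for CRISP3, and 7.75 and 8.01 for C4H6orf58. In animal 4 the sublingual level was slightly below that of liver for both ZG16B (2016 against 2191 TPM) and C4H6orf58 (41.0 against 43.1 TPM). Scaling the libraries by trimmed-mean factors gave, in the same order, 1.82 and 4.89, 4.54 and 6.29, and 5.22 and 5.80.

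Outside the sublingual gland the levels were compared, as a share of the sublingual mean, with the same share for marker genes of pancreas and liver in the other 4 tissues. Whether those tissues make any of these marker genes themselves was not tested. ZG16B reached 11.5% of its sublingual mean in submandibular gland and 0.713 to 1.08% in parotid, pancreas and liver. CRISP3 reached 2.73% in submandibular gland and 0.528 to 1.18% in the other 3 tissues, and C4H6orf58 0.399 to 0.831% in all 4. The 12 pancreas marker genes had medians of 0.633 to 1.06% of their pancreas mean in the other 4 tissues, and the 16 liver marker genes medians of 0.604 to 0.856% of their liver mean. Single marker genes ranged from 0.405 to 1.25%, except for the liver gene TTR in pancreas (11.8%). Apart from submandibular ZG16B and CRISP3, the member shares ran from 0.399% (C4H6orf58 in parotid) to 1.18%. Their denominator is the sublingual level by which the members were chosen, so these shares are a description. The part of RNA from other tissues or libraries in these low levels was not tested.

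**Figure D3:**
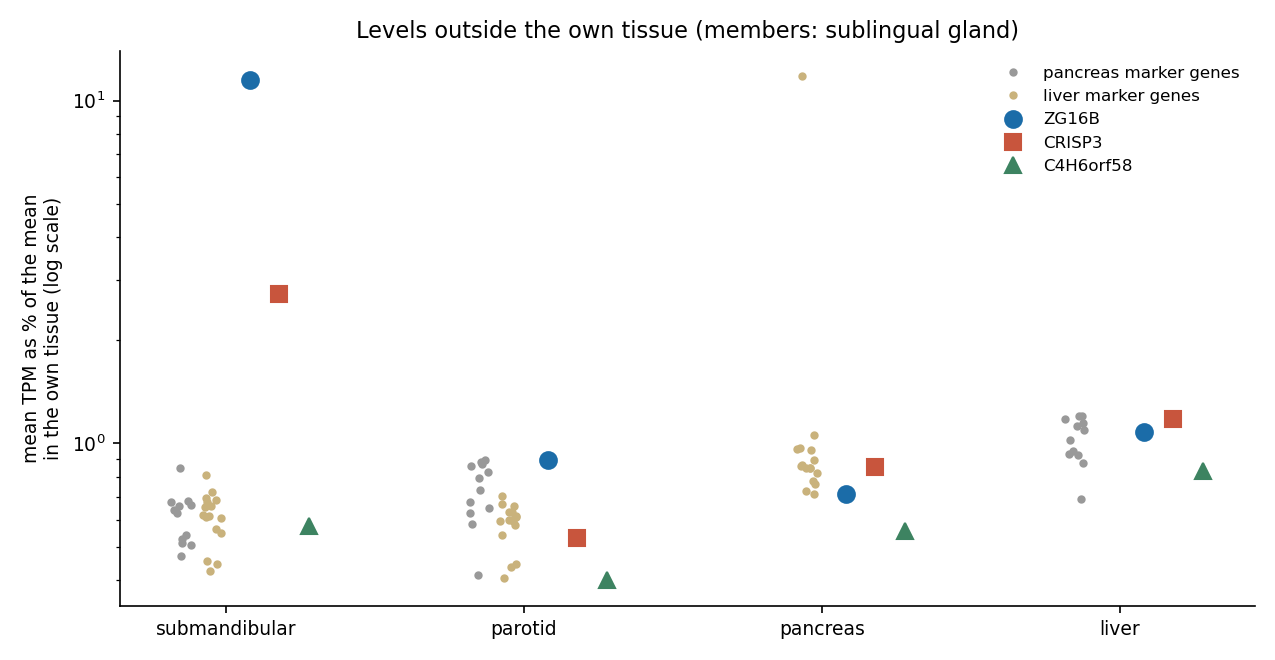
Mean TPM in each tissue outside a gene's own, as a percent of its mean there (log scale), for the 3 genes (own tissue: sublingual gland) and for pancreas and liver marker genes. ZG16B at 11.5% and CRISP3 at 2.73% in submandibular gland stand above the marker genes of that column, and the liver gene TTR in pancreas is at 11.8%.

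Differences among the 4 other tissues did not enter the choice of the genes, and 18 were tested (3 genes, 6 tissue pairs). Values are differences of log2(TPM + 1) from limma with animal as a block. Adjusted p-values are Benjamini-Hochberg over the 13550 genes tested. ZG16B was higher in submandibular gland than in pancreas by 3.75 (SE 0.81, adjusted p = 0.00249), where 9.71% of all genes passed in either direction, and was higher in 5 of 6 animals. It was also higher in submandibular gland than in liver by 2.73 (SE 0.81, adjusted p = 0.00709), where 50.7% of genes passed, again in 5 of 6 animals. CRISP3 was higher in submandibular gland than in pancreas by 1.60 (SE 0.51, adjusted p = 0.0454), in 4 of 6 animals. That call was lost without the animal block (adjusted p = 0.0753), without the filter (0.0619) and without any of animals 1, 2, 3 or 6, when the difference was as low as 1.26.

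The remaining 15 tests did not pass. ZG16B in parotid was below submandibular gland by -3.28 (SE 0.81, adjusted p = 0.0920), in 5 of 6 animals, in a comparison where only 0.347% of all genes passed. Leaving out the submandibular, pancreas and sublingual libraries of animal 4, which was chosen after the data were seen, the difference was -4.11 (adjusted p = 2.76e-05). CRISP3 in parotid was below submandibular gland by -1.88 (SE 0.51, adjusted p = 0.194) and lower in 6 of 6 animals, and was -2.18 (adjusted p = 0.0410) without those libraries. Against liver, parotid CRISP3 was lower in 6 of 6 animals by -1.16 (adjusted p = 0.0534), in a comparison where 58% of genes passed, and with trimmed-mean scaling the difference was -0.05 (adjusted p = 0.952). C4H6orf58 passed in 0 of its 6 comparisons by limma, also at an unadjusted p below 0.05 (0 of 6), and its largest difference was pancreas below liver by -1.16 (SE 0.78, adjusted p = 0.275). In parotid it was below liver in 6 of 6 animals, by -1.11 in limma (adjusted p = 0.220; 0.00440 in the 12 libraries of both tissues alone; exact sign-flip p = 0.03125), and by -0.01 with trimmed-mean scaling. Over all genes, 15.8% passed between parotid and pancreas and 30.4% between pancreas and liver, where 0 of the 3 members passed in limma. Of the 18 tests, 6 had an unadjusted limma p below 0.05. The exact two-sided sign-flip permutation test, whose smallest p is 0.03125 with 6 animals, was below 0.05 in 3 of the 18 tests. Those 3 were parotid against submandibular gland and against liver for CRISP3, and parotid against liver for C4H6orf58. The 3 differences that passed in limma were not among them. After adjustment over the 18 the exact sign-flip permutation test passed in 0. Its smallest p could pass only if most of the 18 tests reached it.

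**Figure D4:**
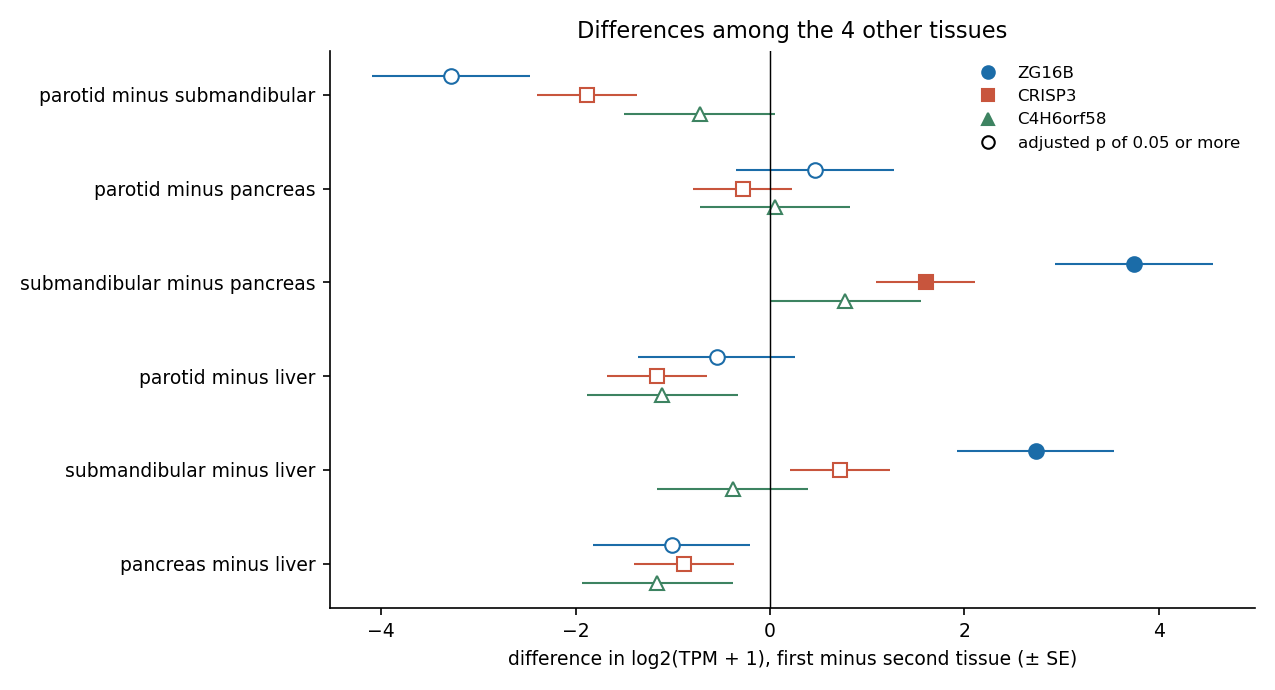
Differences in log2(TPM + 1) among the 4 tissues other than the sublingual gland, with SE, for the 3 genes. Filled symbols pass an adjusted p of 0.05 in limma: ZG16B in submandibular gland against pancreas (3.75) and liver (2.73), and CRISP3 in submandibular gland against pancreas (1.60).

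Related genes were followed in 3 lists, each by how many members differed between the sublingual gland and another salivary gland in limma. The lists were chosen with earlier results of these data known. A gene could also pass the filter through its sublingual level alone, so the list counts and p-values describe these data only. Of 15 CAP superfamily and ZG16 relatives, 13 were in the table and 7 were tested. Against parotid 2 were higher and 0 lower in limma (4 and 0 at an unadjusted p below 0.05), with 40.6% of all genes higher and 0.893% lower. These were PI16, at 18.1 ± 8.03 against 1.72 ± 0.717 TPM (SD, n = 6), and GLIPR1, at 6.73 ± 4.17 against 1.35 ± 0.588 TPM. GLIPR2 was at 12.6 ± 4.87 against 3.57 ± 0.290 TPM and did not pass (adjusted p = 0.0887). Against submandibular gland 0 passed in limma (2 at an unadjusted p below 0.05, both higher), where 27.2% of all genes were higher and 0.753% lower. Without the 3 libraries of animal 4, 4 of the 7 were higher in each comparison, when 54.5% of all genes were higher against parotid and 64.8% against submandibular gland. ZG16, the relative with the highest sublingual mean, was 13.7 to 176 TPM there, and in animal 4 it was above C4H6orf58 (74.0 against 41.0 TPM). It was 4897 to 18962 TPM in pancreas except for 153 TPM in animal 4. ZG16 did not pass in either comparison (adjusted p = 0.962 and 0.780).

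Of 26 secreted proteins of mucous and seromucous glands, 21 were tested. Against parotid 19 were higher and 1 was lower (40.6% and 0.893% of all genes), and the median log2 difference was 3.68, against 0.70 for all genes. Against submandibular gland 14 were higher and 0 lower in limma (1 lower at an unadjusted p below 0.05; 27.2% of all genes were higher and 0.753% lower), with a median of 1.91 against 0.56 for all genes. PIP, a prolactin-inducible secretory protein, was 493 to 109280 TPM in sublingual and 1184 to 5985 TPM in parotid (difference 3.06, SE 0.89, adjusted p = 0.00932), and lowest in animal 4. LYZ, which codes for lysozyme, was 957 to 31311 TPM against 190 to 2830 TPM (3.17, adjusted p = 0.000898). BPIFB1, an antimicrobial airway and saliva protein, differed by 5.07 (adjusted p = 1.70e-05), and MUC7, a salivary mucin, by 5.46 (1.53e-05). MUC7 and PIP did not pass against submandibular gland, and BPIFB1 did (5.20, adjusted p = 3.03e-05), as LYZ did (4.05, adjusted p = 0.000201). The exception was PRR4, a proline-rich protein of tear and saliva, whose sublingual minus parotid difference was -2.12 (adjusted p = 0.0144). FCGBP and LTF were counted as higher in both comparisons, though neither reached 1 TPM in any parotid or submandibular library. FCGBP was 1.83 to 60.4 TPM in sublingual gland, and at most 0.577 in parotid and 0.752 in submandibular gland. LTF was 1.04 to 15.6 TPM, and at most 0.952 and 0.680. Without the filter, 22 of the 26 were higher and 1 lower against parotid, where 30.1% of all genes were higher.

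Of 16 transcription factors of secretory epithelium, 9 were higher and 1 lower against parotid, where 40.6% of all genes were higher, with a median of 1.28 against 0.70 for all genes. Against submandibular gland 5 were higher and 1 lower, where 27.2% of all genes were higher, and the median of 0.65 was close to the 0.56 of all genes. XBP1, a factor of the secretory pathway, was 49.5 to 571 TPM in sublingual gland against 52.2 to 123 TPM in parotid (1.36, adjusted p = 0.00931). ELF3 and KLF5, factors of epithelial cells, differed from parotid by 3.52 and 3.34 (adjusted p = 8.80e-06 and 1.30e-06). Both were highest in the 2 libraries with oral epithelium markers, ELF3 at 329 TPM in animal 4 and 179 TPM in animal 1 and KLF5 at 148 and 123 TPM, and that part in their difference was not tested. SPDEF, a factor of mucous cells, did not pass in either (adjusted p = 0.379 and 0.114). BHLHA15, a factor of serous secretory cells, was the one lower in both, with a mean in the sublingual gland of 12.9 ± 13.1 TPM (SD, n = 6), in the parotid of 85.7 ± 42.2 and in the submandibular gland of 71.4 ± 37.5.

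These list counts depended on scaling. With trimmed-mean factors, which bring the median of all genes from 0.70 to -0.01 against parotid and from 0.56 to 0.01 against submandibular gland, 1234 genes were higher and 1142 lower against parotid, and 1119 and 876 against submandibular gland. The secreted proteins were then 15 higher and 1 lower against parotid and 10 and 1 against submandibular gland. The relatives were 1 and 0, and 0 and 1. The transcription factors were 5 and 2, and 4 and 1.

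The genes whose levels followed each member most closely over the 30 libraries were found by Pearson r of log2(TPM + 1), described without a test, since all points share 6 animals and 5 tissues and the sublingual libraries set most of the range. For ZG16B they were MUC7 (r = 0.955), CCL28, a mucosal chemokine (0.941), IL19, a cytokine (0.937), LCN2, an iron-scavenging lipocalin (0.925), and PIGR, which carries antibodies across epithelium (0.912). For CRISP3 they were GCNT3, a mucin-type glycosyltransferase (0.949), LCN2 (0.923), FAM3D (0.916), JCHAIN, which joins secreted antibody (0.915), and C4H6orf58 (0.913). For C4H6orf58 they were ENPP3 (0.955), OLFM4 (0.946), BPIFB1 (0.941), LCN2 (0.923) and CLDN22 (0.914).

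LCN2 was in all 3 sets. It was 395 TPM in the sublingual gland of animal 1, 3071 in animal 2, 5565 in animal 3, 106 in animal 4, 1096 in animal 5 and 3846 in animal 6, so animals 1 and 4 were lowest as for the members. The members correlated with each other at 0.844 (ZG16B and CRISP3), 0.843 (ZG16B and C4H6orf58) and 0.913 (CRISP3 and C4H6orf58). The order depended on the measure. By Spearman's rho the first gene was still MUC7 for ZG16B and ENPP3 for C4H6orf58, while for CRISP3 it was JCHAIN. BPIFB1 fell to number 392 and OLFM4 to 16 for C4H6orf58, and FAM3D to 44 and GCNT3 to 14 for CRISP3.

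Genes next to the members on the chromosome, in the RefSeq gene order of assembly T2T-MMU8v2.0, were read for their mean level. Beside ZG16B lie PRSS22 and PRSS21, serine protease genes, at mean sublingual levels of 60.5 and 5.72 TPM, and LOC697965 at 9.24 TPM. By mean PRSS22 was 11.03 TPM in pancreas, 9.37 TPM in parotid, 7.20 TPM in submandibular gland and 2.04 TPM in liver. LOC697965, PRSS21 and the further neighbour PRSS41 also had their highest mean in the sublingual gland. PRSS41 was 9.99 TPM there and 8.47 TPM in parotid. Of all genes tested, 40.6% were higher in sublingual gland than in parotid in limma. Beside CRISP3, PGK2, a germ-cell glycolytic gene, was 0.0436 TPM and RHAG, a red-cell gene, 0.373 TPM in the sublingual gland. Beside C4H6orf58, THEMIS, a T-cell gene, was 0.0179 TPM and PTPRK, a receptor phosphatase gene, 2.31 TPM. THEMIS and PTPRK had their highest mean in liver (0.232 and 3.72 TPM). The members were chosen for a high sublingual level, so their place above these neighbours there was set by that choice.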

How the data were processed

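The authors deposited 1 table of TPM values, per the file's name from kallisto, with 21292 gene names and a column for each of the 30 libraries. The submitters' processing notes name kallisto among other tools. Its version, the transcriptome and the genome build are not given in the sources used here, so no coordinates are printed. Reads were paired, 150 bases long, per the labels' protocols. Every column of TPM has the same total, so depth is unknown and no interval or floor that needs it is given. A transcript at a large share lowers all others. How reads shared by members of the CRISP family were divided is not stated.

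Values were log2(TPM + 1). Tests used limma 3.58.1 in R 4.3.3, with tissue and animal fitted to all libraries, moderated variances with a trend, and Benjamini-Hochberg adjustment over the 13550 genes that reached 1 TPM in 6 or more libraries. P-values are two-sided with a threshold of 0.05. Same-animal libraries, paired by the labels' animal numbers, deviated together with a mean correlation of 0.161, against -0.0186 for different animals. The labels give no sequencing batch. A single library per animal and tissue makes animals the replicates.

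The named genes are the 3 members, the 5 genes with the highest r to each, the up to 4 genes of each related list with the highest sublingual mean, and marker genes. PRR4, BHLHA15, FCGBP and LTF were named after their values were seen, and neighbours were taken by position. The members and lists were chosen with earlier results of these data known. Alternatives were no block, 12 libraries, trimmed-mean scaling (30% of log ratios and 5% of mean levels trimmed), a pseudocount of 0.1, no filter, 5 TPM, each animal left out, and an exact sign-flip test over 64 patterns. The alternatives that leave out libraries or rescale keep the same 13550 genes. That rule was adopted after a first run that filtered again.

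Simulated data were used to test the fit, for parotid against submandibular gland, with 200 changed genes among 13252 to 13293 in each of 20 simulations. The changes were placed only in genes with a mean log2(TPM + 1) above 5. The simulated noise was drawn separately for each gene and held no shift of whole libraries, so the shares below apply to such data only. The fit recovered 68.6% of changes of 2 and 97.2% of changes of 4 on the log2 scale. On average 5.00% of its calls were false, with 1.23 to 9.24% in single simulations. The number of simulations was raised from 1 after single runs had been above 5%.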

Additional observations from a re-analysis of the deposited data

Results flagged for a closer look

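Of 15 sets of 6 libraries (3 genes, 5 tissues), 3 held a library far from the others on the log scale, where chance picks about 1 set in 20, or 0.75 here. ZG16B in the submandibular gland was lowest in animal 4 at 669.5 TPM, and the next library was at 11208 TPM. That library also held only 1580 TPM of serous salivary genes and 8086 TPM of fat genes, and the part of this in the ZG16B value was not tested. C4H6orf58 in parotid was lowest in animal 1 at 1.12 TPM, with the next at 9.75 TPM. That parotid library held 7486 TPM of skeletal muscle genes, and the part of this in the C4H6orf58 value was not tested. C4H6orf58 in liver was also lowest in animal 1, at 5.64 TPM, with the next at 24.6 TPM.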

How the results depend on the processing

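Of 252 results for the 18 member tests under other settings, 228 kept their direction and side of the threshold. Directions reversed, all for differences that did not pass, with trimmed-mean scaling for ZG16B parotid minus liver (0.67), CRISP3 parotid minus pancreas (0.44) and C4H6orf58 submandibular minus liver (0.57), and without animal 2 for C4H6orf58 parotid minus pancreas (-0.45, in a range of -0.45 to 0.44 with an animal left out). Under the exact sign-flip permutation test the ZG16B differences of 3.75 and 2.73 no longer passed (adjusted p = 0.1875 each), nor did CRISP3 submandibular minus pancreas (1.60, adjusted p = 0.225). With 6 animals that test could hardly pass the adjustment, so the adjusted p alone says nothing about stability. Before adjustment the sign-flip p of these differences was 0.0625, 0.0625 and 0.125, also above 0.05. The other direction was seen in 1, 1 and 2 of the 6 animals. Animal numbers pair the libraries, and without the replicate block that CRISP3 difference of 1.60 lost its call, as it did without the filter, while no other member call changed without the block. Leaving out 1 animal gave it 1.26 to 2.13. Some differences newly passed. ZG16B parotid minus submandibular did so without animal 4 (-4.04) and without 3 libraries of animal 4 (-4.11). It ranged from -4.04 to -2.88 with an animal left out. CRISP3 parotid minus submandibular passed without those 3 libraries (-2.18). CRISP3 parotid minus liver passed in the 12 libraries alone, with the 5 TPM filter and without those 3 (-1.16 each). The same difference passed with a pseudocount of 0.1 (-1.28) and without animal 4 (-1.27), and ranged from -1.30 to -1.002 with an animal left out. CRISP3 submandibular minus liver passed with trimmed-mean scaling (1.69), where 20.8% of all genes were higher and 25.9% lower. C4H6orf58 parotid minus liver passed in the 12 libraries alone and without those 3 (-1.11 each). Without animal 4, CRISP3 parotid minus submandibular was -2.23 with an adjusted p of 0.0512 in limma over the 13550 genes, and 0.0477 over the 12777 genes left when the filter was applied again. The causes were not tested.

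Of the CAP superfamily and ZG16 relatives, 2 passed against parotid and 0 against submandibular gland. That became 1 and 1 with trimmed-mean scaling, where the 1 against submandibular gland was lower in sublingual gland. It became 1 against parotid with the 5 TPM filter, 1 against submandibular gland without the filter, and 4 and 4 without the 3 libraries of animal 4. With an animal left out the ranges were 1 to 4 and 0 to 4. Other list counts stayed within 1.5 times when both directions were counted together, but not always by direction. Transcription factors higher against parotid fell from 9 to 5 with trimmed-mean scaling. Those higher against submandibular gland went from 5 to 3 in the 12 libraries alone, and to 8 without the 3 libraries of animal 4. Of 15 likeness values, 14 moved under Spearman's rho. The mean sublingual minus parotid difference of CRISP3 was 6.29 with trimmed-mean scaling.

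Counts over all genes moved by over 1.5 times in 37 of 106 results. Parotid minus submandibular ranged from 0 to 97 genes (47 as reported), submandibular minus pancreas from 623 to 4044 (1316), parotid minus pancreas from 947 to 2728 (2141), pancreas minus liver from 2817 to 6600 (4114), sublingual minus parotid from 2376 to 8090 (5625) and sublingual minus submandibular from 666 to 8899 (3787). Sequencing depth is unknown, so which low values are limited by it cannot be said.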

Other observations

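Animal 1 had low levels of the 3 genes in parotid, pancreas and liver. In 7 of the 9 sets formed by the 3 genes in parotid, pancreas and liver its library was the lowest of the 6, and in all 9 it was the lowest or next to lowest. The 3 genes correlate and are read in the same 3 libraries, so these are not 9 separate observations. In pancreas the library of animal 2 was the other low one. There CRISP3 was at 5.71 and 1.14 TPM in animals 1 and 2, with a range of 7.93 to 32.2 TPM elsewhere, and C4H6orf58 was 1.04 and 0.805 TPM, against 16.0 to 44.7 TPM. ZG16B in pancreas was 264 and 283 TPM in those animals, against 1263 to 2666 TPM. BPIFB1, singled out after its values were seen, was also lowest in those animals there. Its order of libraries was that of C4H6orf58, but not fully that of ZG16B or CRISP3. It was 13.0 TPM in animal 1, 5.77 in animal 2, 83.8 in animal 3, 81.5 in animal 4, 212 in animal 5 and 60.8 in animal 6. The low values of animal 1 were not limited to the members. MUC7 was lowest in that animal in parotid (52.9 TPM) and liver (54.8 TPM), while BPIFB1 in parotid was highest there (225 TPM). Animal 1 also had the lowest sublingual CRISP3.

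MPO, a peroxidase best known from neutrophil granules, reached 162 and 159 TPM in the sublingual glands of animals 2 and 3, and ranged from 1.43 to 38.6 TPM elsewhere in that gland. ELANE, a neutrophil granule protease, was at most 0.689 TPM in the 6 sublingual libraries. By contrast, S100A8 and S100A9 were highest in the sublingual libraries of animals 4 and 1. MPO was 6.87 to 36.8 TPM in parotid and 0.417 to 23.1 TPM in submandibular gland. It was 0.313 to 1.08 TPM in pancreas and 0.575 to 1.52 TPM in liver. CRISP3 was 1558 and 1894 TPM in animals 2 and 3 and higher in animal 5, where MPO was 19.8 TPM. Which cells held the MPO RNA, and the part of neutrophils in the CRISP3 level, were not tested.

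JCHAIN, a plasma cell gene, was 8866 TPM in the sublingual gland of animal 3 and 8160 TPM in that of animal 5, and 173 to 1125 TPM in the other 4. CRISP3 was highest in those same 2 animals, at 1894 and 2929 TPM. In animal 6, however, CRISP3 was 1838 TPM, close to that of animal 3, with JCHAIN at only 834 TPM. The part of plasma cells in the CRISP3 level was not tested.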
